A study of Mus musculus with 16 samples.

Results

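The growth hormone, STAT5 and BCL6 axis was followed in mouse liver through 10 genes, found by their symbols. They are the receptor gene Ghr, the transcription factor genes Stat5a and Stat5b, the feedback inhibitor genes Socs2 and Cish, the transcription factor genes Bcl6, Cux2 and Onecut1, and the genes of the secreted products, Igf1 and Igfals. All 10 were found among the 78317 genes listed, and all 10 were among the 14781 genes that passed the filter on low counts and were tested. The series measured liver RNA of wild-type C57BL/6J mice, an inbred strain, that arrived aged 6 weeks and then ate 1 of 2 diets for 10 weeks, in order to test what a high fat diet does in each sex. There were 4 groups of 4 libraries: females on the normal diet (a LabDiet chow with 4.5% of calories from fat), females on the high fat diet (a Research Diets food with 60% of calories from fat), males on the normal diet and males on the high fat diet. The diets came from different makers and can differ in more than fat. All animals were housed in groups with free access to food under 12 h of light a day, all libraries carry the batch number 1, and the hour of collection is not given in the labels. Whether replicates of a group are separate animals is not spelled out either, so p-values measure the spread between these libraries.

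Growth hormone is released by the pituitary, in separated pulses in male rodents and more continuously in females. In the hepatocyte it binds its receptor, the kinase JAK2 is activated, and STAT5 proteins are phosphorylated, enter the nucleus and bind DNA at sites of the form TTCNNNGAA, where N is any base. STAT5 targets include Igf1 and the inhibitors Socs2 and Cish that damp the signal, while BCL6 is a repressor that can bind an overlapping set of sites and is higher in male liver. CUX2 is known as a liver factor of females, and ONECUT1 (also called HNF6) as a hepatocyte factor that responds to growth hormone.

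Because STAT5 and BCL6 can bind the same kind of site, the starts of the genes were searched for it, and the stretches with matches are shown for the genes whose levels are described next. RefSeq windows of 250 bases before to 50 bases after a start (build GRCm38.p6, older than the GRCm39 build of the deposited values) were supplied for 9 of the 10 genes, in 16 windows. The form TTCNNNGAA reads the same on both strands. It was present in 5 windows of 3 genes, Bcl6, Cish and Igfals, against 8.3% of all 32851 windows. The second Bcl6 start has 3 matches, a number reached by 0.0335% of windows (11 windows). Its 250 upstream bases lie at chr16:23981284-23981533 on the minus strand, within the Bcl6 gene and outside any exon of the GENCODE M21 annotation, with the matches in capitals, and they begin 168, 122 and 88 bases before the start.
Bcl6, second start: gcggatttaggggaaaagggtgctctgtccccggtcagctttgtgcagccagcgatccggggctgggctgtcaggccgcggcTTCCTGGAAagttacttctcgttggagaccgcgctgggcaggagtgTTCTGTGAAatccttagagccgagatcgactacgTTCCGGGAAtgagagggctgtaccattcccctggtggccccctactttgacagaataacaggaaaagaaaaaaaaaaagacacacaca

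The remaining matches are shown in stretches of 30 bases, again with the match in capitals. The first Bcl6 start has its match 118 bases upstream, at chr16:23988951-23988980 on the minus strand. The Cish stretch at chr9:107296654-107296683 on the plus strand begins just before the RefSeq start and falls in a 5′ untranslated exon of GENCODE M21. It holds 2 matches, at bases 1 and 12 of the transcript, and 0.457% of windows have 2 or more. Igfals has a match 236 bases before its first start, at chr17:24877598-24877627, and another 58 bases before its second start, at chr17:24878163-24878192, both on the plus strand. The second has the letters TTCCTAGAA, a form bound by both STAT5 and BCL6, which overlaps the general form and was found on either strand in 0.411% of windows. A match describes letters in a window and is not a measured binding site.
Bcl6, first start: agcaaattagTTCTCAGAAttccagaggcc
Cish: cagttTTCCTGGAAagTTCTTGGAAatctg
Igfals, first start: gatctataatTTCTCAGAAaagaggctgag
Igfals, second start: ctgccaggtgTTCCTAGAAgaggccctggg

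The libraries held 22228115 to 41420589 expected counts. Of the 8 hepatocyte markers examined (among them Alb, the gene of serum albumin), 3 fell on the high fat diet in females and 4 in males, and their summed level was 108254 to 121593 CPM (counts relative to the scaled library size) in normal diet females, 82731 to 99815 in high fat diet females, 88748 to 99932 in normal diet males and 57489 to 79437 in high fat diet males. Alb made up most of that sum, with means of 90610.3, 71842, 68674 and 48465 CPM in the same order. By the edgeR quasi-likelihood test the fall of Alb was called in males (adjusted p = 0.0303, 18 of 26 alternative settings) and not in females (adjusted p = 0.137). Over all tested genes 11.5% were called for diet in females and 11.4% in males. Of the 8 macrophage markers, 2 rose on the high fat diet in females and 1 in males, with sums of 266 to 359.8, 391 to 553, 223 to 340.4 and 201 to 353 CPM in the same order. Of 8 stellate cell markers 3 rose in females and 0 were called in males (sums 326 to 334 and 321 to 351 CPM in females on the normal and the high fat diet, and 220 to 263 and 278 to 397 in males), and 1 of 3 tested adipocyte markers rose in males (sums 7 to 11.5 and 9.74 to 20.7 CPM). None of the 16 hepatocyte and macrophage markers was at 0 throughout a group. Pancreatic acinar markers summed to 22.9 and 21.6 CPM in replicates 2 and 3 of the males on the high fat diet and to 4.69 CPM or less in every other library, and these 2 libraries resembled each other. The root mean square difference of their log2 CPM over tested genes was 0.448, against 0.586 to 0.776 for the other pairs of that group and 0.475 or more for every other pair within a group. Whether they come from separate animals is not given in the labels, so the main results in those males are also given with both left out, and the diet calls of Stat5a and Stat5b with both averaged into 1. The clock gene Nr1d1 rose on the high fat diet in females (log2 fold change 1.79 ± 0.21, SE) and fell in males (-1.91 ± 0.22). The part of cell content, of these 2 libraries' origin and of the hour in the results was not tested, and in bulk tissue fewer cells of a type and less RNA per cell cannot be told apart.

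Levels per length of transcript, as TPM (a transcript's share of all transcripts), set the genes in order. In males on the normal diet Igf1 (342 TPM) and Ghr (298) led, followed by Igfals (24.7), Socs2 (10.1), Onecut1 (9.91), Stat5b (7.12), Bcl6 (5.62), Cish (5.48), Stat5a (1.64) and Cux2 (0.045). Socs2 and Onecut1 differed by less than the spread of either between libraries, as did Stat5b, Bcl6 and Cish among themselves. In females on the normal diet Igf1 (459 TPM) and Ghr (292) led as well, while Cux2 (2.4) stood beside Stat5a (2.22) and Cish (2.6). On the high fat diet Bcl6 (2.17) was the lowest of the 10 in females, where it overlapped with Cux2 (3.11). In males on that diet the mean of Onecut1 (24.1) was near that of Igfals (24.7). The Onecut1 libraries were at 33, 12.2, 12.7 and 38.7 TPM, however, and those of Igfals at 22.9 to 26.3.

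**Figure D1:**
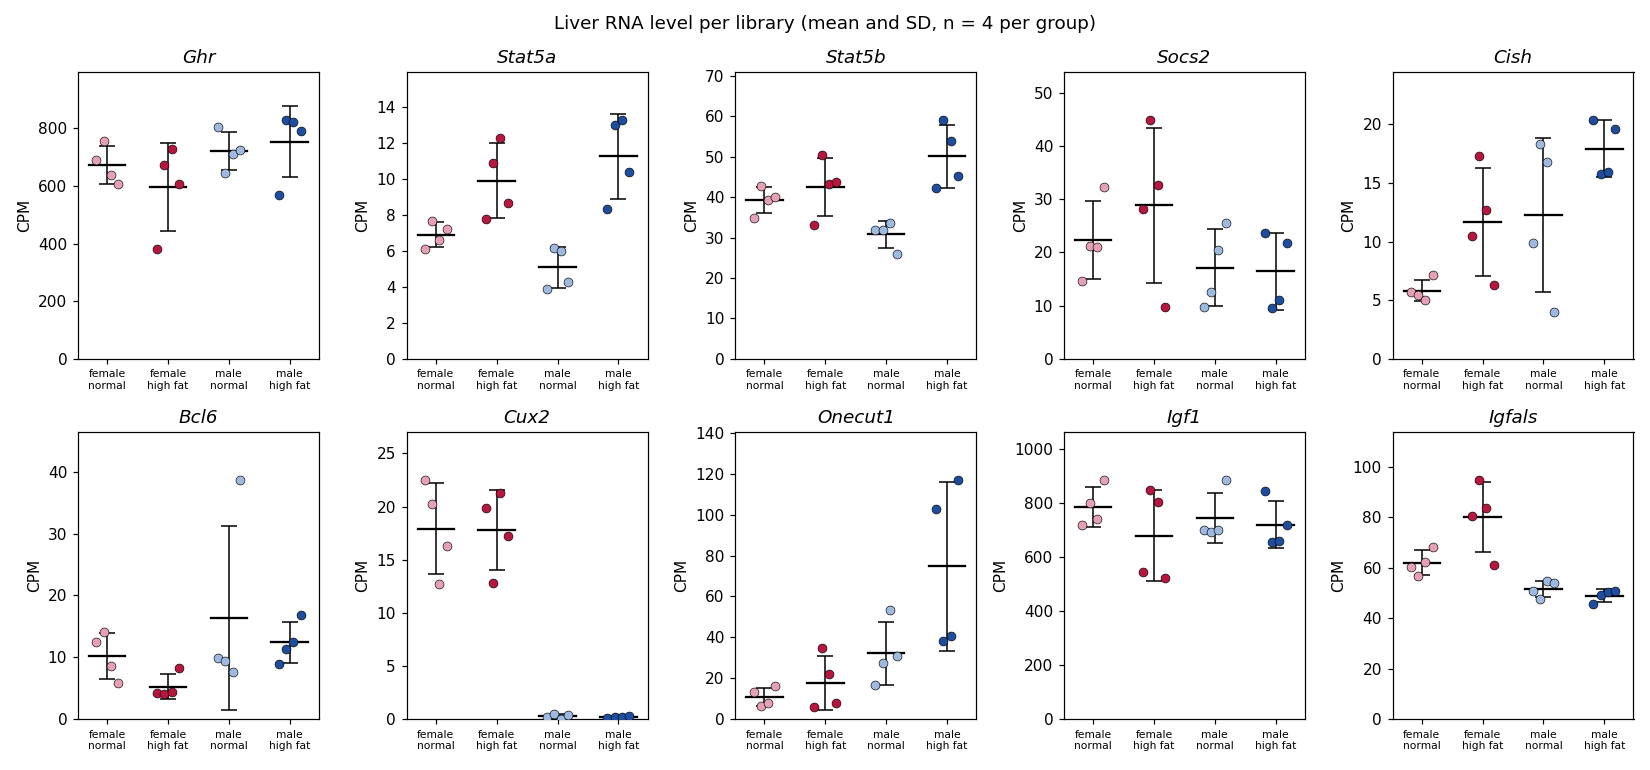
Liver RNA level of the 10 genes in CPM on a linear axis from 0, by group; points are libraries, lines are group means and bars are SDs (n = 4). Cux2 is near 0 in all 8 male libraries, and Stat5a and Stat5b of males on the high fat diet lie above all male libraries on the normal diet.

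High fat diet was followed by a rise of both Stat5 genes in males and of Igfals in females, at an adjusted p under 0.05 in the edgeR quasi-likelihood test. In males 2 of 10 genes were called, both higher, and in females 1 of 10, also higher. Over all tested genes 11.4% were called in males (6.03% higher and 5.36% lower) and 11.5% in females (5.74% higher and 5.76% lower), so the count in the axis is within 1 gene of that share in both sexes. The median log2 fold change of the 10 genes was 0.00 in males and 0.24 in females, against 0.011 and 0.002 over all tested genes. Without scaling between libraries the medians over all genes moved to 0.103 and 0.192, and on log2(TPM + 1) to 0.051 and 0.149, so changes are given relative to the scaled median.

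Females and males differed most in Cux2. On the normal diet 1 of 10 genes was called between the sexes, and on the high fat diet 3 of 10, with Cux2 and Igfals higher and Onecut1 lower in females. Over all tested genes 15.7% were called on the normal diet (7.03% higher in females and 8.68% lower) and 20.4% on the high fat diet (8.84% higher and 11.6% lower), again within 1 gene of the counts in the axis. The same 3 genes were called on the high fat diet without replicates 2 and 3 of its males. The response to diet itself differed between the sexes for 0 of 10 genes by edgeR. An unadjusted p under 0.05 was reached by 3 (Stat5a, Stat5b and Igfals), and the share of all tested genes reaching it is not given here. DESeq2 also called 0 of 10 for this interaction, and 0.677% of all tested genes were called by edgeR.

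**Figure D2:**
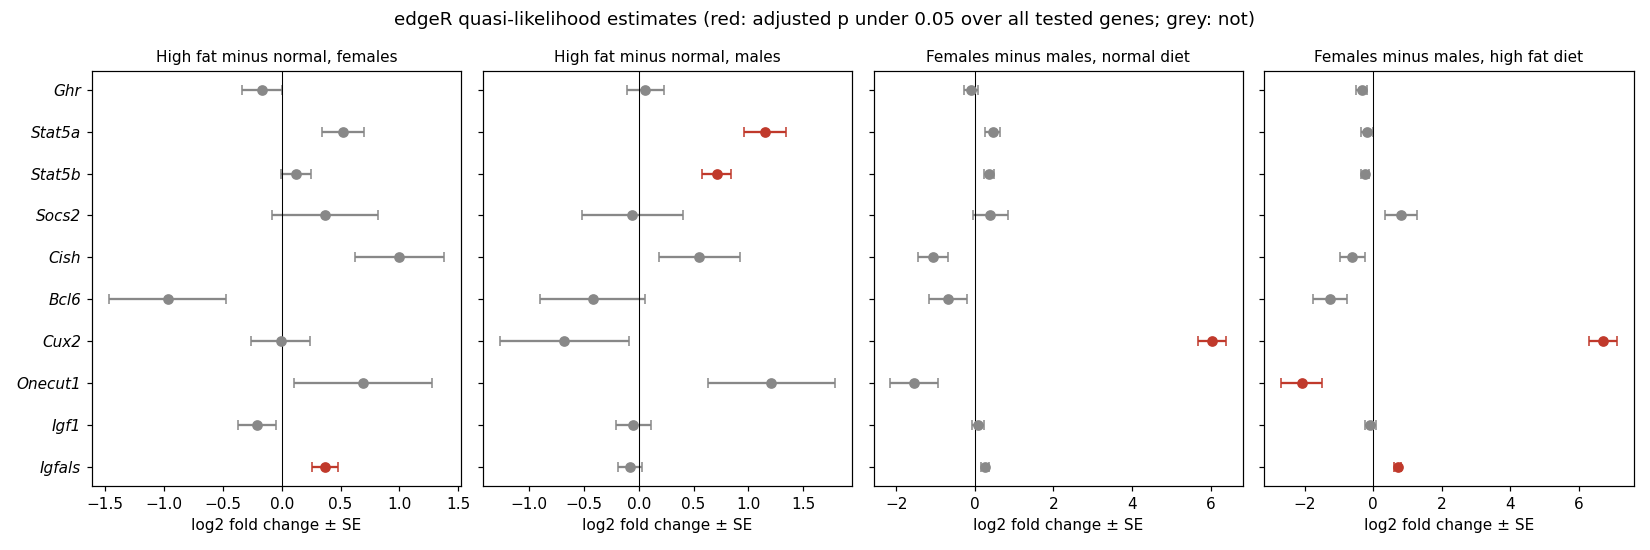
Log2 fold change with its SE (horizontal axis; scales differ between panels) of the 10 genes in 4 comparisons, from the edgeR fit to all 16 libraries; red points have an adjusted p under 0.05. Red are Igfals in females, Stat5a and Stat5b in males, Cux2 on both diets, and Onecut1 and Igfals between the sexes on the high fat diet.

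Ghr (ENSMUSG00000055737.13), the growth hormone receptor, was among the more abundant transcripts and did not pass the test in any comparison. Replicates 1 to 4 had 689, 755, 637 and 605 CPM in females on the normal diet and 381, 671, 729 and 606 on the high fat diet. In males they had 806, 644, 710.4 and 724 CPM on the normal diet and 569.7, 829.8, 823 and 789.7 on the high fat diet. The groups overlapped in both sexes, and replicate 1 was the lowest library of its group on the high fat diet in females and in males. The log2 fold change for diet was -0.17 ± 0.17 (SE; adjusted p = 0.553) in females and 0.06 ± 0.17 (adjusted p = 0.852) in males, where it was -0.09 (adjusted p = 0.851) without replicates 2 and 3 of the high fat diet. Between the sexes on the high fat diet it was -0.34 ± 0.17 (adjusted p = 0.165).

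Stat5a (ENSMUSG00000004043.15), one of the paired signal transducers downstream of the receptor, rose in males on the high fat diet. Its levels in males were 3.91, 6.14, 6.01 and 4.28 CPM on the normal diet and 8.32, 13, 13.3 and 10.4 CPM on the high fat diet. All 4 high fat diet libraries lay above all 4 others. The rise was 2.22-fold (log2 fold change 1.15 ± 0.19, adjusted p = 0.000834), and the adjusted p ranged from 1.04e-06 to 0.0194 over 26 alternative settings, all of which called it. Without replicates 2 and 3 of the high fat diet males, the log2 fold change was 0.88 and the adjusted p 0.0194, and with the 2 averaged they were 1.06 and 0.0036.

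In females Stat5a had 6.12, 7.69, 6.62 and 7.22 CPM on the normal diet and 7.76, 10.9, 12.3 and 8.67 CPM on the high fat diet. The diets did not overlap here either, but by a small margin, and the log2 fold change of 0.52 ± 0.18 missed the threshold (adjusted p = 0.0762). It passed in 6 of the 26 settings, among them the fits without replicate 1 of the females (0.049) and without replicate 1 of the males (0.048) on the high fat diet, and the adjusted p ranged from 0.0131 to 0.187. The difference between the responses of females and males was -0.63 ± 0.26 on the log2 scale, with an unadjusted p of 0.0269 and an adjusted p of 0.312 in edgeR. Exons of Stat5a overlap those of Stat3 on the opposite strand in GENCODE M21, and whether counting used the strand is not given in the sources used here, so some reads may belong to either gene.

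Stat5b (ENSMUSG00000020919.12), the main STAT5 of hepatocytes, also rose in males. The male libraries had 31.8, 31.8, 33.7 and 25.9 CPM on the normal diet and 42.3, 59.2, 54 and 45.2 CPM on the high fat diet. No high fat diet library of males fell among those on the normal diet. The rise was 1.63-fold (log2 fold change 0.71 ± 0.13, adjusted p = 0.00243), called in all 26 settings with adjusted p from 5.58e-05 to 0.0482. The last value came from leaving out replicates 2 and 3 of the high fat diet males, which gave a log2 fold change of 0.51, while averaging them gave 0.64 (adjusted p = 0.00893).

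In females Stat5b had 34.9, 42.9, 39.4 and 40 CPM on the normal diet and 33.1, 50.5, 43.3 and 43.7 CPM on the high fat diet, with overlap. The log2 fold change there was 0.12 ± 0.13 (adjusted p = 0.609), and the difference between the sexes in the response was -0.59 ± 0.19 (unadjusted p = 0.00552, adjusted p = 0.175). On the normal diet every female library exceeded every male one, with a log2 fold change of 0.35 ± 0.13 that missed the threshold (adjusted p = 0.0767) and passed it without replicate 1 of the females on the high fat diet (0.04) and with only the groups compared in the fit (0.0283). Stat5a and Stat5b are close paralogs, and 10 of the 16 expected counts of each were not whole numbers, by at most 0.43 counts from the nearest whole number. The ratio of Stat5b to Stat5a, both in TPM, was, on the normal diet, 3.94 to 4.32 in females and 3.73 to 5.93 in males, and on the high fat diet 2.58 to 3.71 and 2.96 to 3.66. Stat5b thus stayed the more abundant of the pair in all 16 libraries.

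Socs2 (ENSMUSG00000020027.19), a feedback inhibitor that STAT5 induces, did not pass the test in any comparison, and its libraries spread widely within each group. Females had 14.7, 21.2, 21 and 32.3 CPM on the normal diet and 28.1, 44.9, 32.6 and 9.65 CPM on the high fat diet. Males had 9.72, 12.6, 20.5 and 25.5 CPM on the normal diet and 23.6, 9.47, 11 and 21.7 CPM on the high fat diet. In the males on the high fat diet replicates 1 and 4 were the higher libraries, and replicates 2 and 3 the lower. The log2 fold change for diet was 0.37 ± 0.45 (adjusted p = 0.643) in females and -0.06 ± 0.46 (adjusted p = 0.952) in males. The latter was 0.40 (adjusted p = 0.701) without replicates 2 and 3.

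Cish (ENSMUSG00000032578.8), a second STAT5-induced inhibitor of the same family, had its lowest group mean in females on the normal diet. Females had 5.71, 5.46, 4.98 and 7.14 CPM on the normal diet and 10.5, 17.3, 12.7 and 6.28 CPM on the high fat diet. Males had 9.88, 18.3, 16.8 and 4.03 CPM on the normal diet and 20.4, 15.8, 15.9 and 19.6 CPM on the high fat diet. Of the females on the high fat diet, 3 lay above all on the normal diet, and replicate 4 lay among them. Replicate 4 of the males on the normal diet was the lowest of all 16 libraries.

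The Cish log2 fold change for diet was 1.00 ± 0.38 in females (2.01-fold, adjusted p = 0.0993) and 0.55 ± 0.37 in males (adjusted p = 0.359), and neither passed. Without replicates 2 and 3 of the high fat diet males the male value was 0.71 (adjusted p = 0.409). Between the sexes on the normal diet it was -1.06 ± 0.38 (adjusted p = 0.0705). Replicate 4 of the males on the normal diet enters the shared estimate of spread, and without it the female and the sex difference were 1.01 (adjusted p = 0.0187) and -1.36 (adjusted p = 0.00448). DESeq2 also put both under the threshold (adjusted p = 0.0235 and 0.0127). Most settings did not. Of 26, 4 called the female diet change (adjusted p up to 0.24) and 2 the sex difference (up to 0.195). GENCODE M21 places the pseudogene Gm17040 and the antisense gene Gm17041 over exons of Cish, so part of its count could come from these.

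Bcl6 (ENSMUSG00000022508.6), the repressor that can occupy STAT5 sites, was low in 3 of 4 females on the high fat diet. Females had 12.5, 14.1, 8.53 and 5.85 CPM on the normal diet and 4.29, 4, 4.41 and 8.24 CPM on the high fat diet. Males had 9.88, 9.36, 7.69 and 38.7 CPM on the normal diet and 8.88, 11.3, 12.5 and 16.9 CPM on the high fat diet. Replicate 4 of the males on the normal diet stood far above every other library, and replicate 4 of the females on the high fat diet above the rest of its group. The coefficient of variation among the males on the normal diet was 90.8%.

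The Bcl6 log2 fold change for diet was -0.97 ± 0.50 (adjusted p = 0.235) in females and -0.42 ± 0.48 (adjusted p = 0.622) in males. Without replicate 4 of the males on the normal diet the female value was -0.96 (adjusted p = 0.0437), and the male value turned to 0.45 (adjusted p = 0.377). Without replicates 2 and 3 of the high fat diet males the male value was -0.36 (adjusted p = 0.797). On the high fat diet all female libraries lay below all male ones, at a log2 fold change of -1.25 ± 0.50 (2.37-fold lower in females, adjusted p = 0.0966). Without replicate 4 of the males on the normal diet this sex difference was -1.23 (adjusted p = 0.00877). Without replicates 2 and 3 of the high fat diet males it was -1.30 (adjusted p = 0.194). It passed in 2 of 26 settings (adjusted p up to 0.216), and the female diet change in 1 of 26 (up to 0.449). On the normal diet the sexes overlapped, at -0.69 ± 0.48 (adjusted p = 0.362). Without replicate 4 of its males the value was 0.19 (adjusted p = 0.745), so the direction rests on that library. Exons of Bcl6 and of Gm37419, on the opposite strand, overlap in GENCODE M21.

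**Figure D3:**
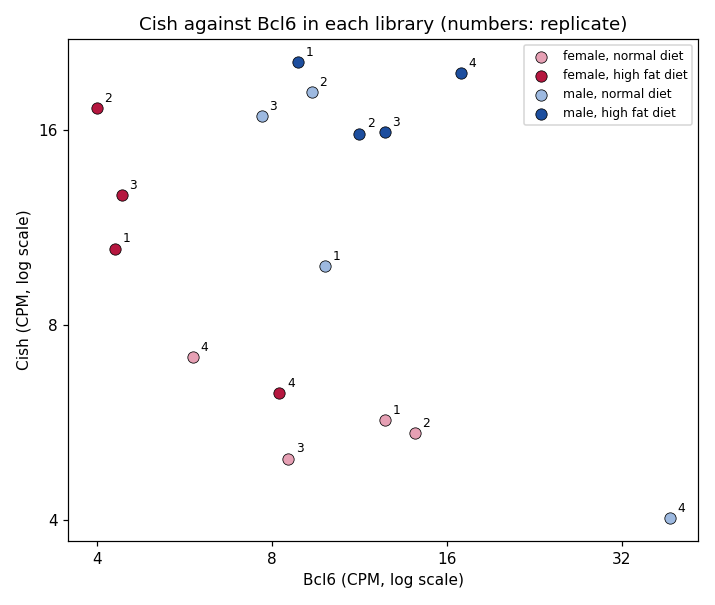
Cish against Bcl6 in each of the 16 libraries, both in CPM on log axes, coloured by group and numbered by replicate. Replicate 4 of the males on the normal diet has the highest Bcl6 (38.7 CPM) and the lowest Cish (4.03 CPM), and females on the high fat diet lie to the left apart from replicate 4.

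The 2 genes were also set side by side within each library, both in TPM. Cish over Bcl6 was 0.593, 0.501, 0.748 and 1.58 in females on the normal diet and 3.14, 5.49, 3.7 and 0.963 on the high fat diet. It was 1.27, 2.49, 2.8 and 0.133 in males on the normal diet and 2.94, 1.79, 1.63 and 1.49 on the high fat diet. In 3 of 4 females on the high fat diet the ratio exceeded that of every female on the normal diet, and replicate 4 was lower than the highest of these. In CPM, replicate 4 of the males on the normal diet had the highest Bcl6, Socs2 and Igf1 and the lowest Cish and Stat5b of that group. In TPM its Igf1 (338) lay within the range of the rest of the group (328 to 365).

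Cux2 (ENSMUSG00000042589.19), a homeobox factor of female liver, separated the sexes on both diets. Females had 22.5, 20.2, 12.7 and 16.3 CPM on the normal diet and 19.9, 12.8, 21.3 and 17.2 CPM on the high fat diet. Males had 0.206, 0.428, 0 and 0.352 CPM on the normal diet and 0.0743, 0.17, 0.172 and 0.266 CPM on the high fat diet. Every female library exceeded every male one. The highest male count was 15 and the lowest 0, and the latter allows a level of up to 0.13 CPM (3 counts, counting error only).

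The difference between the sexes in Cux2 was 65.2-fold on the normal diet (log2 fold change 6.03 ± 0.36, adjusted p = 8.81e-09) and 104-fold on the high fat diet (6.70 ± 0.40, adjusted p = 5.98e-09), and all 26 settings called both. The diet comparison in females gave -0.01 ± 0.25 (adjusted p = 0.985). In males the estimate of -0.68 ± 0.59 (adjusted p = 0.492) rested on a handful of reads and was not resolvable at this depth.

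Onecut1 (ENSMUSG00000043013.11), the HNF6 gene, was higher in males than in females on the high fat diet. Females had 13.2, 6.47, 8.09 and 16.1 CPM on the normal diet and 5.98, 34.6, 22.2 and 7.93 CPM on the high fat diet. Males had 16.7, 27.5, 53.6 and 30.9 CPM on the normal diet and 103, 38.1, 40.5 and 117 CPM on the high fat diet. The sexes did not overlap on either diet. Among the males on the high fat diet replicates 1 and 4 were far above 2 and 3, the same split as for Socs2.

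On the high fat diet Onecut1 was 4.21-fold lower in females (log2 fold change -2.08 ± 0.60, adjusted p = 0.0277), and 19 of 26 settings called it. The call was lost without replicate 1 (-1.78, adjusted p = 0.0699) or 4 (-1.83, 0.0753) of the females, or without replicate 1 (-1.85, 0.0667) or 4 (-1.77, 0.0785) of the males on that diet. Without replicates 2 and 3 of the males it was -2.63 (adjusted p = 0.0171). On the normal diet the log2 fold change of -1.55 ± 0.60 missed the threshold in edgeR (adjusted p = 0.0975) and passed it in DESeq2 (0.0386). The diet itself gave 0.69 ± 0.59 in females (adjusted p = 0.494) and 1.21 ± 0.58 in males (adjusted p = 0.198), neither passing the test. The male value was 1.77 (adjusted p = 0.126) without replicates 2 and 3 of the high fat diet. None of its 16 expected counts was whole (they lay up to 0.49 counts from a whole number), and the noncoding gene Gm20649 overlaps its exons on the same strand.

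Igf1 (ENSMUSG00000020053.19), the circulating growth factor made by the liver under growth hormone, did not pass the test in any comparison of counts. Females had 719, 798, 740.5 and 884 CPM on the normal diet and 542, 847, 802 and 523 CPM on the high fat diet. Males had 699.5, 692, 699 and 883 CPM on the normal diet and 842, 654, 658 and 719 CPM on the high fat diet. The groups overlapped throughout. Diet gave a log2 fold change of -0.21 ± 0.16 (adjusted p = 0.412) in females and -0.05 ± 0.16 (adjusted p = 0.877) in males, and females differed from males by 0.08 ± 0.16 (adjusted p = 0.774) on the normal diet and by -0.08 ± 0.16 (adjusted p = 0.738) on the high fat diet.

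The deposited TPM of Igf1 gave another picture between the sexes. It was 443, 421, 517 and 457 TPM in females and 328, 365, 339 and 338 TPM in males given the normal diet. With high fat food it was 458, 469.9, 471 and 379 TPM in females and 407, 314, 318 and 360 TPM in males. The sexes did not overlap on the normal diet and overlapped in 1 library of each sex on the high fat diet. On log2(TPM + 1) limma gave differences of 0.42 (adjusted p = 0.0176) and 0.35 (adjusted p = 0.0245), both higher in females.

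TPM divides each gene's count by an effective length that depends on which transcripts the quantifier assigned, and 7 Igf1 transcripts were listed. The count per TPM, scaled within each library by genes with 1 transcript and set to a mean of 1 in males on the normal diet, was therefore compared, a measure chosen after the values had been seen. It was 0.714, 0.831, 0.723 and 0.906 in females and 0.916, 0.907, 0.985 and 1.192 in males on the normal diet, and 0.643, 0.997, 0.887 and 0.791 in females and 1.004, 1.007, 0.987 and 0.999 in males on the high fat diet. The ratio of females to males was 0.793 on the normal diet, with an exact two-sided permutation p of 0.0286, the smallest that 4 against 4 libraries allows, and 0.343 after Benjamini-Hochberg adjustment over 36 such tests. For the high fat diet it was 0.830 (exact permutation p = 0.0571). Cux2 was left out of these tests, as its male counts (0 to 15) were too few. In females its values were 1.338, 1.299, 1.220 and 1.315 on the normal diet and 1.338, 1.077, 1.130 and 1.191 on the high fat diet. These are relative to few male reads and were not tested. For the remaining members ratios between group means were 0.948 to 1.011. Which transcripts differed was not analysed here.

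**Figure D4:**
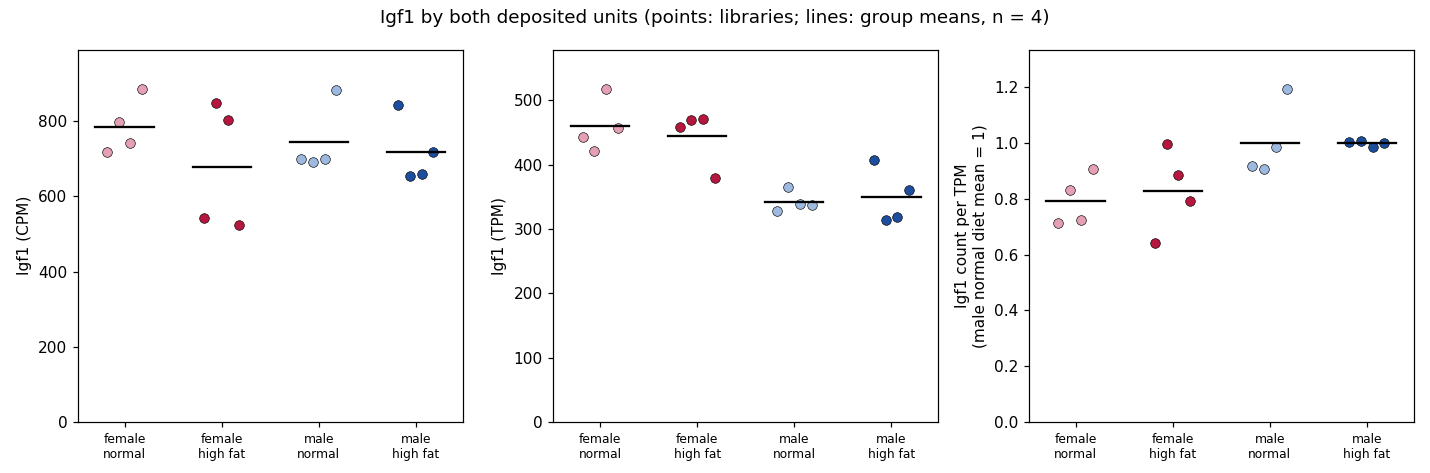
Igf1 in each library by group: CPM from expected counts (left), TPM as deposited (middle) and count per TPM relative to the mean of males on the normal diet (right), with lines at group means (n = 4) and axes from 0. The sexes overlap in CPM, while TPM is higher and the count per TPM lower in most female libraries.

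Igfals (ENSMUSG00000046070.10), whose product holds IGF1 in a stable complex in the blood, was higher in females than in males on the high fat diet. Females had 60.4, 56.7, 62.3 and 68.3 CPM on the normal diet and 80.4, 94.7, 83.7 and 61.1 CPM on the high fat diet. Males had 50.6, 47.5, 54.5 and 53.8 CPM on the normal diet and 45.4, 49, 50.5 and 50.7 CPM on the high fat diet. All females exceeded all males on both diets. Of the females on the high fat diet, 3 lay above all on the normal diet and replicate 4 fell among them.

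Between the sexes on the high fat diet Igfals was 1.64-fold higher in females (log2 fold change 0.71 ± 0.11, adjusted p = 0.000385), called in all 26 settings, and 0.74 (adjusted p = 0.00292) without replicates 2 and 3 of the males. On the normal diet the log2 fold change of 0.26 ± 0.11 missed the threshold (adjusted p = 0.119). Igfals rose 1.29-fold on the high fat diet in females (0.37 ± 0.11, adjusted p = 0.0407) and gave -0.08 ± 0.11 in males (adjusted p = 0.698), with an interaction of 0.45 ± 0.16 (adjusted p = 0.244). The female call held in 14 of 26 settings. It was lost in 9 fits that left out 1 library, with adjusted p of 0.0615, 0.123 and 0.0683 without replicates 1, 2 and 3 of the females on the high fat diet, 0.0774, 0.0982 and 0.0648 without replicates 1, 2 and 3 of the females on the normal diet, 0.0512 and 0.0517 without replicates 2 and 4 of the males on the high fat diet, and 0.0509 without replicate 3 of the males on the normal diet. Without both replicates 2 and 3 of the high fat diet males it was 0.0545.

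Other genes of the pathway came from 5 lists of its textbook parts. Of 23 tested genes of growth hormone receptor signalling, 2 rose on the high fat diet in females and 0 were called in males. Over all tested genes 11.5% and 11.4% were called. In males edgeR gave 3 of the 23 an unadjusted p under 0.05 and DESeq2 called 2. Among those that rose in females was Ptpn6, a phosphatase of blood cells that can act on JAK2. It had 13.6 ± 1.58 CPM (SD, n = 4) on the normal and 23.2 ± 2.37 CPM on the high fat diet in females (log2 fold change 0.77 ± 0.13, adjusted p = 0.00141). Between the sexes 4 of 23 were called on the normal diet and 13 on the high fat diet, against 15.7% and 20.4% of all tested genes. The 4 became 2 without replicate 3 of the normal diet males, and the 13 became 8 without replicate 1 of the females, 8 without replicate 1 of the males and 7 without replicate 4 of the males on the high fat diet. The prolactin receptor gene Prlr, a relative of Ghr, was among the called genes on both diets, at 404 ± 20.2 CPM in females and 76.5 ± 14.4 in males on the normal diet. Prlr was named after its values were seen.

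Of 11 tested genes of the IGF system, 1 was called for diet in males, lower, and 0 in females, against 11.4% and 11.5% of all tested genes. In females edgeR gave 2 an unadjusted p under 0.05 and DESeq2 called 1. Igfbp2, a binding protein of IGFs, fell in males from 203 ± 49 to 93.8 ± 25.8 CPM (SD, n = 4; log2 fold change -1.11 ± 0.24, adjusted p = 0.00679). Without replicates 2 and 3 of the males on the high fat diet its adjusted p was 0.0776. In females Igfbp2 was at 238 ± 35 and 142 ± 52.4 CPM and missed the threshold (adjusted p = 0.0531), which it passed without replicate 1 of the females (0.00971) or of the males (0.0396) on the high fat diet.

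Of 20 liver transcription factors and partners of BCL6, 3 rose and 3 fell on the high fat diet in females, and 3 fell in males, against 11.5% and 11.4% of all tested genes called. The 6 calls in females became 2 without replicate 2 of the high fat diet females or replicate 3 of the normal diet females, and 3 without replicate 1 or 2 of the latter, and the 3 in males became 6 without replicate 1 of the high fat diet males. Hnf4a, a master regulator of hepatocyte genes and a partner of STAT5 on many promoters, fell in both sexes, from 557 ± 10.1 to 369 ± 42.4 CPM in females (-0.60 ± 0.12, adjusted p = 0.00331) and from 702 ± 103 to 508 ± 18.8 CPM in males (-0.47 ± 0.11, adjusted p = 0.0139). On log2(TPM + 1) limma gave Hnf4a -0.35 in females (adjusted p = 0.0501) and -0.37 in males (adjusted p = 0.0653), and neither passed. The male Hnf4a call was also lost without replicate 3 of the males on the normal diet (0.0582) and without replicates 2 and 3 of those on the high fat diet (0.083). Cebpb, a factor of the acute phase response, fell in females (-1.15 ± 0.21, adjusted p = 0.00218), where Foxa2, a pioneer factor, rose (0.78 ± 0.20, adjusted p = 0.0205). The Foxa2 call was lost without replicate 2 of the females on the high fat diet (0.0573) and without replicates 2 (0.0585) or 3 (0.0573) of the females on the normal diet. Trim24 fell in males (-0.91 ± 0.16, adjusted p = 0.00119, and 0.007 without replicates 2 and 3 of the high fat diet). Foxa3 fell in males (-1.25 ± 0.22, adjusted p = 0.00214; -0.97, 0.0305 without these) and in females (-0.84 ± 0.22, adjusted p = 0.0247). Its female call held in 16 of 26 settings and was lost, among others, in 6 fits that left out 1 female library, with adjusted p of 0.0603, 0.0688 and 0.079 without replicates 2, 3 and 4 on the high fat diet and 0.0674, 0.0573 and 0.0656 without replicates 1, 3 and 4 on the normal diet. The summed hepatocyte markers, of which Hnf4a is one and Alb the largest part, were lower on the high fat diet as given above.

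The targets of the axis were followed as 20 genes known to be higher in male and 24 known to be higher in female liver. Sex bias defines the lists, and they were chosen with earlier results of these data known, so the sex comparison does not test them. On each diet 18 of 20 male genes were lower in females, against 8.68% (normal) and 11.6% (high fat) of all tested genes. On the normal and the high fat diet 24 and 23 of 24 female genes were higher in females, against 7.03% and 8.84%. With the diet, 4 of the 20 male genes fell in females and 4 in males, with 0 higher in either sex. Over all tested genes 5.76% fell in females and 5.36% in males. The list medians were -0.91 and -0.66, against 0.002 and 0.011 over all tested genes. Ugt2b1, a glucuronidating enzyme, fell in both sexes (-0.69 ± 0.17 in females, adjusted p = 0.0128, and -1.10 ± 0.17 in males, adjusted p = 0.000508). Its female call was lost with limma on log2(TPM + 1) (adjusted p = 0.052) and log2(TPM + 0.1) (0.0523). Slco1a1, an anion transporter, fell in females from 168 ± 21.5 to 18.7 ± 17.1 CPM (SD, n = 4; -3.17 ± 0.62, adjusted p = 0.00684), and was at 696 ± 193 and 525 ± 102 CPM in males (adjusted p = 0.694). Replicates 1 to 4 of Slco1a1 in the high fat diet females had 5.17, 29.9, 36.7 and 3.1 CPM. The female Slco1a1 call was lost with only the groups compared (adjusted p = 0.0556). Cyp2d9, a male cytochrome P450, fell in females (-0.92 ± 0.21, adjusted p = 0.0101). In males Cspg5 fell from 2.08 ± 0.163 to 0.18 ± 0.172 CPM (adjusted p = 0.00122) and Gstp1, a glutathione transferase, from 2883 ± 491 to 1074 ± 673 CPM (adjusted p = 0.0232). Replicates 1 to 4 of Gstp1 in the high fat diet males had 1767, 496, 499 and 1535 CPM, so the pair that resembled each other was the lowest. The Gstp1 log2 fold change was -1.42 ± 0.37, and -0.81 without replicates 2 and 3 (adjusted p = 0.0511), where the call was lost. It was also lost with the 2 averaged (0.0522), without replicate 3 of the males on the high fat diet (0.0518), without replicate 1 of those on the normal diet (0.0608), with no filter (0.0736) and with only the groups compared (0.0787). Without replicates 2 and 3, Ugt2b1 (adjusted p = 0.0094) and Cspg5 (-2.67, adjusted p = 0.0108) were still called in males. The 4 male genes called in males became 2 without replicate 3 of the high fat diet.

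Of the 24 female genes, 1 fell on the high fat diet in females, and 1 rose and 1 fell in males. Over all tested genes 5.76% fell in females, and 6.03% rose and 5.36% fell in males. The 2 calls in males became 5 without replicate 1 and 4 without replicate 4 of the high fat diet males, and 4 without replicate 2 of the normal diet males. Cyp39a1, a sterol hydroxylase, fell in females from 126 ± 28.2 to 62.4 ± 13.4 CPM (SD, n = 4; log2 fold change -1.01 ± 0.26, adjusted p = 0.0214). That call was lost in 5 fits that left out 1 female library, replicates 1 (0.0679) and 4 (0.0689) on the high fat diet and replicates 1 (0.0571), 2 (0.0598) and 4 (0.0708) on the normal diet. In males the cytochrome P450 genes Cyp2b9 and Cyp2c40 went opposite ways. Cyp2b9 rose from 0.645 ± 0.728 to 50.5 ± 52.6 CPM (6.15 ± 1.14, adjusted p = 0.00476). Replicates 1 to 4 of Cyp2b9 with high fat food were at 3.31, 96.2, 95.8 and 6.51 CPM, so replicates 2 and 3 carried the mean, and without them the log2 fold change was 2.76 (adjusted p = 0.0232). With only the groups compared the call was lost (adjusted p = 0.0557). Cyp2c40 fell from 20.6 ± 10.4 to 1.5 ± 0.859 CPM (-3.77 ± 0.40, adjusted p = 5.37e-05; -4.03, 0.000632 without replicates 2 and 3). In edgeR, Cyp2c40 was the 1 gene of the 5 lists called for a diet response that differed between the sexes (interaction 3.22 ± 0.51, adjusted p = 0.00638), and in females it was at 1078 ± 178 and 738 ± 166 CPM (adjusted p = 0.301). DESeq2 called more for the interaction, among them Cyp2b9 (adjusted p = 0.0024), Cebpb (0.00455), Trim24 (0.0168), Cyp39a1 (0.0225), Slco1a1 (0.0398) and Cspg5 (0.0454). Few of the 25 settings called these: 3 for Cyp2b9 and Cspg5, 4 for Cebpb and Trim24, 2 for Cyp39a1 and 1 for Slco1a1. The share of all tested genes that DESeq2 called for the interaction is not given here. Cytochrome P450 genes of these subfamilies have near-identical relatives, between which reads can be split.

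The genes whose log2 CPM most resembled that of each called member over the 16 libraries were listed among 10639 genes, as a description of libraries that share sex, diet and depth. Stat5a was most like Lgalsl (Pearson r = 0.954, Spearman rho = 0.953) and Pcnx4 (0.934, 0.903). Stat5b was most like Mcc (0.926, 0.835) and Slc44a1 (0.919, 0.947). Cux2 was most like 2 female-biased genes, Sult2a1 (0.989, 0.921) and Cyp3a41a (0.989, 0.909). Onecut1 was most like Klhl28 (0.948, 0.929) and Rnf144b (0.939, 0.938), and Igfals was most like Taf7 (0.871, 0.826) and AC154912.1 (0.857, 0.844).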

How the data were processed

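Total RNA of powdered whole mouse liver was extracted with an RNeasy kit, made into 16 NEBNext Ultra poly(A) libraries and sequenced on a NovaSeq instrument, per the labels' protocols. The submitters' processing notes name STAR, RSEM and the build GRCm39; versions, annotation release and strand setting are not given in the sources used here. The deposited values were expected counts (read estimates shared between genes, which need not be whole) and deposited TPM, both per gene. Of the 78317 listed identifiers, 51487 matched a symbol in a supplied table.

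Expected counts were rounded and genes filtered with filterByExpr, which kept 14781 genes with 99.94% of counts. Libraries were scaled by TMM, and the robust quasi-likelihood test of edgeR 4.0.16 (R 4.3.3) was fitted to all 16 libraries with 1 mean per group. Contrasts were two-sided, and genes were called at a Benjamini-Hochberg adjusted p under 0.05, with all tested genes in the adjustment. SE was derived from the log2 fold change and its F statistic, as its absolute value over the root of F. The scripts were tested on simulated data. Alternatives were DESeq2 1.42.0, other scalings, no filter, limma 3.58.1 on log2(TPM + 1) and log2(TPM + 0.1), fits to only the groups compared, a replicate block, left-out libraries and replicates 2 and 3 of the males on the high fat diet averaged into 1. Leaving out both of these was chosen after seeing the data.

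The members, the 5 pathway lists and the marker lists were chosen with earlier results of these data known. Named from each list were the 3 called genes with the smallest p in each diet contrast and the interaction, and for each called member the 2 genes with the highest Pearson r of log2 CPM (prior count 2, mean log2 CPM of at least 1). One gene that the rule chose is not reported here. Depth limits precision. SEs and SDs include the spread between libraries, and the floor given for Cux2 covers counting error only.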

Additional observations from a re-analysis of the deposited data

Results flagged for a closer look

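In groups of 4, a library was marked where its gap to the nearest other library took up a larger part of the group's range than Dixon's 95% limit allows. Of 40 groups examined (10 genes in 4 groups), 4 held such a library, and chance alone marks about 1 in 20. Bcl6 in replicate 4 of the males on the normal diet was at 38.7 CPM, against 7.69 to 9.88 in the rest of the group. Igf1 in the same library was at 883 CPM, against 692 to 699.5. In TPM it did not stand apart (338, against 328 to 365), and its count per TPM was the highest of the group (1.192). Bcl6 in replicate 4 of the females on the high fat diet was at 8.24 CPM, against 4 to 4.41. Ghr in replicate 1 of the males on the high fat diet was at 569.7 CPM, against 789.7 to 829.8.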

How the results depend on the processing

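Over 26 alternatives, the 10 genes in 5 comparisons gave 1289 log2 fold changes. A change of sign counted as a reversal only where a value was called. By this rule 1204 kept direction and side of the threshold, 40 uncalled values changed sign, 19 lost and 24 gained the call, and 2 reversed. Both reversals were Igf1 between the sexes on the high fat diet, 0.35 on log2(TPM + 1) and 0.35 on log2(TPM + 0.1) against -0.08 in counts. Unit, test and scaling changed together there, and the cause was not tested. The count of members called for diet in females (1 in the report) was 2 with DESeq2, 3 without scaling, 0 without a filter, 2 on either TPM scale and 0 without replicates 2 and 3 of the males on the high fat diet, and 0 to 3 with 1 library left out. Between the sexes on the normal diet it (1 in the report) was 3 with DESeq2, 2 on either TPM scale, 4 with only the groups compared, and 1 to 2 with 1 library left out. It stayed at 2 for diet in males and 0 for the interaction, and was 2 to 4 between the sexes on the high fat diet (3 in the report). The deviations of same-numbered replicates correlated weakly (r from -0.16 to 0.18). Low values of r cannot show whether the numbers pair the libraries. With a replicate block 2 members were called for diet in females, 2 in males, 0 for the interaction, and 3 and 2 between the sexes on the normal and the high fat diet. Between the sexes 3 of 4 libraries correlated best with their own number on the normal diet (r from 0.05 to 0.16). On the high fat diet 2 of 4 did (r from 0.02 to 0.18). Between the diets 1 of 4 did in females and 0 in males. Depth limits Cux2 in males.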
